A study of Mus musculus with 17 samples.

Results

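Cell division in the mammary gland was read from 42 genes that act in DNA replication or in mitosis, chosen by symbol: 16 replication and G1/S genes and 26 G2 and mitosis genes. All 42 were listed among the 19782 genes of the knockout table, 41 among the 17130 genes of the CXCR4 sort table, 40 among the 18818 genes of the culture table and 42 among the 26584 named genes of the P4 table. Cdc6 was not listed in the sort table, and Plk1 and Mybl2 were not listed in the culture table. RNA sequencing had been done on 17 libraries from mammary glands of virgin mice.

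In 8 libraries, macrophages had been sorted by F4/80 and CD11b, 2 per genotype. These were Cxcr4 knockout macrophages (LysmCre+, Cxcr4fl/fl; Cre in myeloid cells), LysM-Cre controls (LysmCre+), macrophages of mice that lacked Cxcl12 in luminal epithelium (K8Cre+, Cxcl12fl/fl) and K8-Cre controls (K8Cre+). In the Cxcl12 mice the deletion lay in luminal cells and not in the macrophages sequenced, and all 4 genotypes carried a Cre allele. The genotypes as given do not state the number of Cre copies. Wild-type F4/80+ CD11b+ macrophages had also been sorted by surface CXCR4, the receptor of the chemokine CXCL12, into 2 CXCR4+ libraries and 1 CXCR4- library. Wild-type macrophages cultured in RPMI with serum gave 1 library each with recombinant CXCL12, with the AKT inhibitor GSK690693, with both and untreated. P4 cells, the Lin-CD24+CD29hi basal population enriched for mammary stem cells, gave 1 library from K8Cre+, Cxcl12fl/fl mice and 1 from K8Cre+ controls. Age and strain are not given in the sources used here, nor whether repeats came from separate mice, so p-values measure the spread between libraries, which may be technical.

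As cells enter S phase, E2F factors switch on replication genes: the MCM helicase, the clamp PCNA and the enzymes that make deoxynucleotides. In G2 a complex of MuvB proteins with B-MYB and FOXM1 switches on mitotic genes through CHR elements, often with CCAAT boxes bound by NF-Y. In resting cells the related DREAM complex holds both groups down. Many tissue macrophages keep their number by dividing in place, so their cell-cycle mRNAs are often used as a readout of local proliferation. In bulk RNA, fewer dividing cells and less mRNA per dividing cell cannot be told apart.

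Promoters of 5 genes are shown because the results below turn on them or because they show the elements of both groups, as chosen after the search. The windows run from 250 bases before to 50 bases after the RefSeq start, on GRCm38.p6, written on the gene's own strand. Capitals mark matches to CHR, CCAAT and E2F letters, each searched on both strands. A CHR match is TTTGAA in one form or, in its other form, TTCGAA. For E2F the first form searched was TTGGCGC, with TTCGCGC as the second. Its other forms were TTCCCGC and, with a changed base, TTGCCGC. Ube2c (plus strand, chr2:164769679-164769978) and Mcm5 (plus strand, chr8:75109259-75109558) were the genes that passed the test in the CXCR4 sort. Top2a (minus strand, chr11:99024140-99024439) and Ccnb2 (minus strand, chr9:70421505-70421804) are further mitotic genes, and Mcm6 (minus strand, chr1:128359656-128359955) is a further helicase gene.
Ube2c: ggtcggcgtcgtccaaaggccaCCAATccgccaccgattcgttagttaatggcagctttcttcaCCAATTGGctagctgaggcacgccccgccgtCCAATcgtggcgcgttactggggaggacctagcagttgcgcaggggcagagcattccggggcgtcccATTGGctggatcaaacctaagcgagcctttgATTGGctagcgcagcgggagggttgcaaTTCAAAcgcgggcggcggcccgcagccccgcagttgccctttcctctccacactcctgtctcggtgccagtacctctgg
Top2a: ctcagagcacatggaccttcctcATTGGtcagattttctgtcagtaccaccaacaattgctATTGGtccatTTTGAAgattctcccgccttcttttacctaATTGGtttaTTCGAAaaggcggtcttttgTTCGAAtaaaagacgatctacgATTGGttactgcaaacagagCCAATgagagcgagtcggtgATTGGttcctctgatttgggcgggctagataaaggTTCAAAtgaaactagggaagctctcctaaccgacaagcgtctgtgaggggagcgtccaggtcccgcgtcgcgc
Ccnb2: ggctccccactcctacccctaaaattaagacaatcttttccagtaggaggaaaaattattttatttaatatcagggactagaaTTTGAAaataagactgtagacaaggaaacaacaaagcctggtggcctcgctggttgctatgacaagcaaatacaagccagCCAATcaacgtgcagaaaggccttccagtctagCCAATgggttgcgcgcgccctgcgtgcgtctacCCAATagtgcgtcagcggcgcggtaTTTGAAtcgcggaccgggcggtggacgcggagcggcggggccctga
Mcm5: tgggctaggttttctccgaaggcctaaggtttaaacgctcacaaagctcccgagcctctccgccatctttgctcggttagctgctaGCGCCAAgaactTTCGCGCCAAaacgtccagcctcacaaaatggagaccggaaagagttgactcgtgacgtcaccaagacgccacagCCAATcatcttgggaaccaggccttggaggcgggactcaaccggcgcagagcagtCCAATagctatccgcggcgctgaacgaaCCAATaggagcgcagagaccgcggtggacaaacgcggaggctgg
Mcm6: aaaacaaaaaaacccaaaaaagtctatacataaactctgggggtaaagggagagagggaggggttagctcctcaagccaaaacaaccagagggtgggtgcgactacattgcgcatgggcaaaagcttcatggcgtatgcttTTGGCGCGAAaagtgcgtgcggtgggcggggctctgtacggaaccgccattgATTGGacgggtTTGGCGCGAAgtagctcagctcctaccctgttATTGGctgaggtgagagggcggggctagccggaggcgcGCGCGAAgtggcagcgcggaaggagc
The Ube2c window held 1 CHR match, whose first base lay 29 bases before the start, and 6 CCAAT matches. Top2a held 4 CHR and 6 CCAAT matches, and Ccnb2 held 2 CHR and 3 CCAAT matches. None of these 3 mitotic windows held an E2F match. Mcm5 and Mcm6 had the reverse pattern, with no CHR match but 3 and 5 E2F matches. Some matches share bases: 2 pairs of E2F matches overlap in Mcm6 and 1 pair in Mcm5, and so do 2 of the CCAAT matches in Ube2c.

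Across the genes, 34 of 42 had a promoter in the RefSeq table, with 36 windows. Foxm1, Mcm4, Aurkb, Ccna2, Kif20a, Tpx2, Ccne2 and Stmn1 had none there. A CHR match stood in 15 of 20 G2 and mitosis genes (75%) and in 3 of 14 replication genes (21.4%). The shares were 17% of genes tested in the CXCR4 sort and 21.7% of all 27025 genes of the table. Of the 14411 genes tested in the sort, 9729 had a promoter in the table, and shares of genes tested are over these. An E2F match stood in 7 of 14 replication genes (50%) and 3 of 20 G2 and mitosis genes (15%), against 19.2% of genes tested and 10.9% of all. CCAAT matches were common in both groups, in 17 of 20 G2 and mitosis genes (85%) and 9 of 14 replication genes (64.3%), against 42.5% of genes tested and 41.1% of all. In G2 and mitosis genes the median CHR match began 19 bases before the start, and 15 of 23 lay within 50 bases of it. Matches are counted per window, so the CHR site of Prc1, which lies in both of its overlapping windows, is counted in each. Of 22 E2F matches, 3 shared bases with a CCAAT match. A match describes letters in the window and shows no binding.

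**Figure D1:**
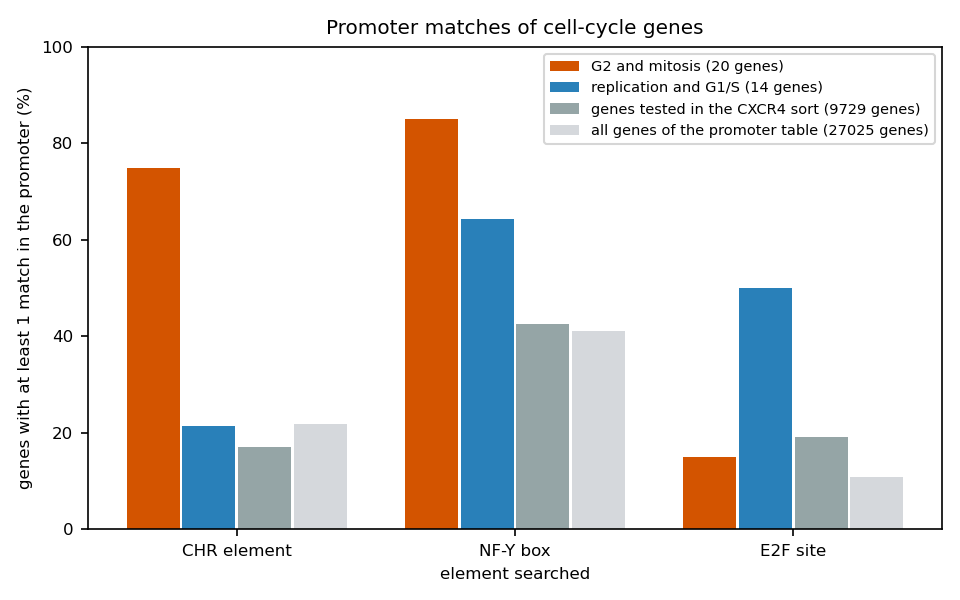
Share of genes with at least 1 match in the promoter window (y axis, %) for the CHR element, the NF-Y (CCAAT) box and the E2F site (x axis). Orange bars are G2 and mitosis genes and blue bars replication and G1/S genes. Grey bars are the 9729 genes tested in the CXCR4 sort that had a promoter, and all genes of the RefSeq table. The CHR bar of the mitotic genes stands at 75% and the E2F bar of the replication genes at 50%.

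Levels are given as CPM, a gene's reads scaled to the depth of its library, for macrophages and as FPKM, also scaled to gene length, for P4 cells, and are not compared across these scales. Depth read from the value steps was 8.60 to 37.2 M reads in the 8 knockout-experiment libraries, 23.2 to 28.8 M reads in the CXCR4 sort and 14.3 to 29.0 M reads in culture; P4 depth is unknown. Replicates differed to unequal degrees. Of the genes at 10 CPM or more in either library, 11 of 21 differed at least 2-fold between the Cxcr4 knockout libraries (51.2% of all genes) and 18 of 24 between the LysM-Cre controls (59.6% of all genes). Between the Cxcl12 knockout libraries 8 of 29 did (27.9% of all genes), between the K8-Cre controls 19 of 27 (58.1% of all genes) and between the CXCR4+ libraries 8 of 24 (16.8% of all genes). The targeted gene Cxcr4 was at 232 and 140 CPM in Cxcr4 knockout macrophages, against 819 and 318 CPM in LysM-Cre controls, with no overlap (log2 change -1.49, SE 0.49, adjusted p = 1, limma). Macrophage libraries do not check the Cxcl12 deletion. Cxcr4 mRNA did not separate the sort, at 632 and 875 CPM in the CXCR4+ libraries, against 772 CPM in the library labelled CXCR4-. The 9 macrophage markers summed to 1323 to 5507 CPM in sorted libraries and 791 to 1220 CPM in culture, where 4 endothelial markers summed to 1532 to 2022 CPM, against 5.24 to 166 CPM in the sorted libraries. In P4 cells the 8 basal markers summed to 7168 FPKM in the Cxcl12 knockout and 5426 FPKM in the control, against macrophage sums of 11.6 and 8.88 FPKM.

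The 42 genes differed greatly in level. Per kilobase of exon, Pcna stood first with a median of 93.4 CPM per kb over the 15 macrophage libraries, from 70.8 to 149 CPM per kb. Mki67, whose protein coats mitotic chromosomes, followed at a median of 10.6 CPM per kb, and Stmn1, which encodes a tubulin-binding protein, at 10 CPM per kb. Next came the helicase subunits Mcm5 and Mcm3, at 7.77 and 7.06 CPM per kb, and topoisomerase Top2a at 5.96 CPM per kb. Neighbours after Pcna did not separate, since each ranged over at least 4-fold between libraries. The lowest medians were those of Cdc20, an activator of the anaphase-promoting complex, at 0.0394 CPM per kb, and Mybl2, which encodes B-MYB, at 0.0632 CPM per kb over the 11 libraries that list it.

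Pcna and Mki67 were present in every macrophage library, Pcna at 170 to 358 CPM and Mki67 at 42.9 to 179 CPM. Pcna alone made up 18.02% to 40.2% of the summed CPM of the genes listed. Reads of Pcna may be shared with its processed pseudogene Pcna-ps2, which had 92.6 CPM in LysM-Cre control 1 and up to 37.6 CPM elsewhere, so its values are uncertain. Mitotic regulators were far lower and often missing: Cdk1, Birc5 and Cdc20 were each at 0 in 5 of 15 libraries. Foxm1, Bub1 and the cyclin E gene Ccne1 were each at 0 in 4 of 15.

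**Figure D2:**
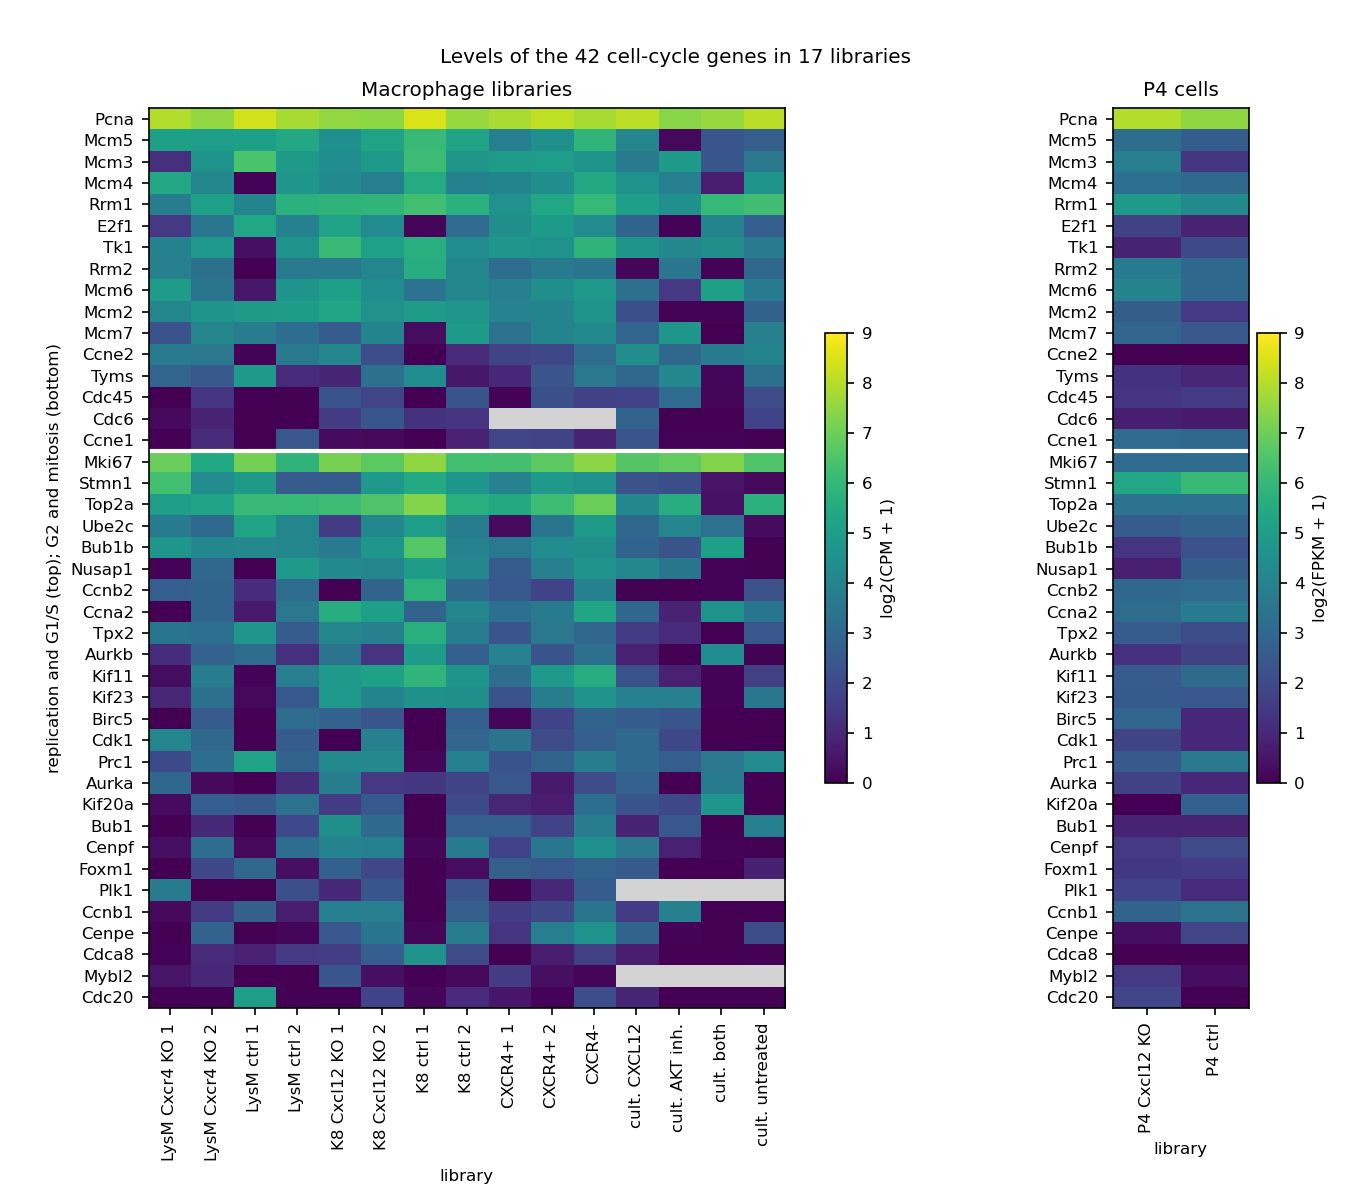
Level of each gene (rows) in each library (columns), as log2(CPM + 1) for 15 macrophage libraries at left and log2(FPKM + 1) for P4 cells at right. Grey marks a gene not listed in that table; Pcna and Mki67 are bright in all 15 macrophage columns, while Cdk1, Birc5 and Cdc20 are at 0 in 5 of them.

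How many of the genes were at 0 changed from library to library together with the whole table. Of 42 genes, 7 and 1 were at 0 in the Cxcr4 knockout libraries, against 12 and 2 in LysM-Cre controls. In Cxcl12 knockout macrophages 3 and 0 were at 0, against 10 and 0 in K8-Cre controls. In culture 0 of 40 were at 0 with CXCL12, 7 with the AKT inhibitor and 11 with both, against 8 untreated. The libraries with most of these genes at 0 were also those with most genes at 0 overall: 30.4% of all listed genes in LysM-Cre control 1, 36.96% in K8-Cre control 1 and 30.9% in culture with both agents. In each genotype of the knockout experiments, repeat 1 had fewer reads and more of all listed genes at 0 than repeat 2. Highly expressed genes were seldom at exactly 0. Of 3823 genes at 20 CPM or more in all other knockout-experiment libraries, 7 were at 0 in K8-Cre control 1. Genes left with few reads are not in that count. Between the K8-Cre controls, 58.1% of genes at 10 CPM or more in either library differed at least 2-fold. The part of these library differences in the results below was not tested, except where values without a library are given.

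**Figure D3:**
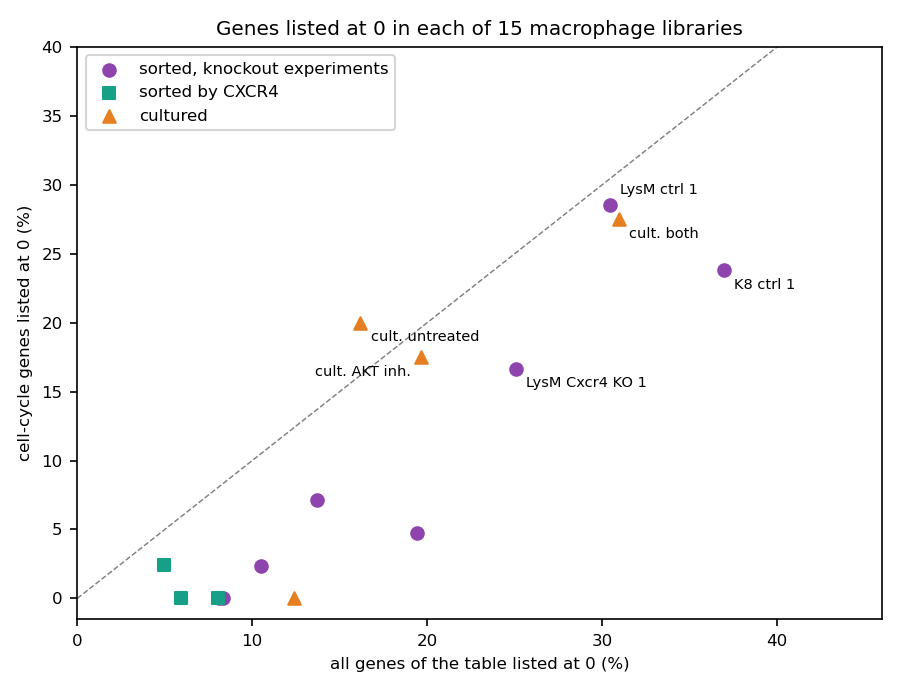
Share of the cell-cycle genes listed at 0 (y axis, %) against the share of all genes of the same table listed at 0 (x axis, %) in each of the 15 macrophage libraries; the dashed line marks equal shares. The 6 points above 10% on the y axis are LysM-Cre control 1, K8-Cre control 1, Cxcr4 knockout 1 and the cultures with both agents, with the AKT inhibitor and untreated.

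Macrophages sorted as CXCR4+ had lower levels of most mitotic genes than those sorted as CXCR4-. Of 37 genes tested, 32 had a log2 change below 0 in CXCR4+ libraries (58.7% of all genes). Their median was -1.12 over the 37, against a median of -0.20 over all 14411 genes tested. Two-sided limma tests on log2(CPM + 1), adjusted over all genes, called 2 of the 37 lower and 0 higher (3.4% of all genes were called lower, 5.06% higher and 8.46% in either direction). At an unadjusted p under 0.05 there were 11 of 37 (29.7%), against 19% of all genes. The 2 CXCR4+ libraries both lay below the CXCR4- library for 26 of 37 genes (44.6% of all genes) and both above it for 4 (32.1% of all genes).

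Ube2c encodes the ubiquitin-conjugating enzyme that works with the anaphase-promoting complex at mitotic exit. It had 0.208 and 10.4 CPM in the CXCR4+ libraries, against 29.1 CPM in the CXCR4- library. Both CXCR4+ values were lower, though they lay far apart, and Ube2c fell (log2 change -3.02, SE 0.98, adjusted p = 0.0292, limma). That SE comes from the trend across genes and not from the spread of these 2 values. Its gene, ENSMUSG00000001403, lies at chr2:164769898-164778822 on GRCm38. Mcm5, a subunit of the replicative helicase (ENSMUSG00000005410, chr8:75109569-75128439), had 13.6 and 22.0 CPM in the CXCR4+ libraries, against 58.2 CPM in the CXCR4- library. It also fell, with a log2 change of -1.69 (SE 0.56, adjusted p = 0.0332, limma). Both calls were lost with a pseudocount of 0.1 CPM, where the adjusted p became 0.124 for Ube2c and 0.0588 for Mcm5, and also with no filter, with quantile normalization and with no mean-variance trend. Without CXCR4+ library 1 the log2 change of Ube2c was -1.40, and without CXCR4+ library 2 it was -4.64.

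Among G2 and mitosis genes, 21 of 22 had a log2 change below 0 (58.7% of all genes), with a median of -1.44. Top2a, which untangles replicated DNA, had 43.6 and 72.9 CPM in the CXCR4+ libraries, against 124 CPM in the CXCR4- library (log2 change -1.12, SE 0.40, adjusted p = 0.0624, limma). Mki67 had 79.5 and 105 CPM in the CXCR4+ libraries, against 170 CPM in the CXCR4- library. Its log2 change of -0.90 (SE 0.37) had an adjusted p = 0.128 by limma. Both genes lay below the CXCR4- library in each CXCR4+ library, without passing the test.

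Cyclin A2 (Ccna2) and the spindle motor Kif11 had log2 changes of -1.78 and -1.55. The kinetochore genes Cenpe and Cenpf were at -2.02 and -1.85. None of these 4 passed, with adjusted p-values of 0.0827, 0.0839, 0.161 and 0.217 by limma. The last 3 leaned on CXCR4+ library 1: without it Kif11, Cenpe and Cenpf were at -0.73, -0.76 and -0.98, and without CXCR4+ library 2 at -2.38, -3.27 and -2.72. Cyclin B1 (Ccnb1), the partner of CDK1 at mitotic entry, had 1.94 and 2.83 CPM in the CXCR4+ libraries, against 9.92 CPM in the CXCR4- library. Birc5, the survivin subunit of the chromosomal passenger complex, had 0.104 and 2.50 CPM in the CXCR4+ libraries, against 6.39 CPM in the CXCR4- library. Both genes were lower in each CXCR4+ library, with intervals that include 0.

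Cdk1 itself, the kinase that starts mitosis, overlapped, with 9.90 and 3.24 CPM in the CXCR4+ libraries, against 5.47 CPM in the CXCR4- library. Stmn1 also overlapped, with 14.7 and 27.3 CPM in the CXCR4+ libraries, against 23.1 CPM in the CXCR4- library. Foxm1, the forkhead factor of the mitotic program, had 5.66 and 4.52 CPM in the CXCR4+ libraries, against 6.07 CPM in the CXCR4- library. Its log2 change of -0.22 turned to 0.03 under quantile normalization. Cdc20, Cdca8, Kif20a and Mybl2 were under the filter and not tested.

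Of the replication genes, 11 of 15 had a log2 change below 0 (58.7% of all genes), with a median of -0.64. Thymidine kinase Tk1 had 25.3 and 22.9 CPM in the CXCR4+ libraries, against 56.9 CPM in the CXCR4- library (log2 change -1.21, SE 0.52, adjusted p = 0.146, limma). Mcm2 had 14.9 and 15.7 CPM in the CXCR4+ libraries, against 24.4 CPM in the CXCR4- library. The helicase was not uniform, as Mcm4 was at a log2 change of -1.20 and Mcm3 at 0.33. Pcna had 230 and 283 CPM in the CXCR4+ libraries, against 224 CPM in the CXCR4- library. Its log2 change was 0.19, with a 95% interval of -0.48 to 0.85.

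E2f1 had 20.8 and 28.7 CPM in the CXCR4+ libraries, against 19.4 CPM in the CXCR4- library, so that this S-phase factor lay above in both. Rrm2, the regulated subunit of ribonucleotide reductase, overlapped at 8.32 and 11.8 CPM in the CXCR4+ libraries, against 10.1 CPM in the CXCR4- library. Its log2 change of -0.03 turned to 0.18 under quantile normalization. The summed CPM of G2 and mitosis genes was 0.58 and 0.70 times that of replication genes in the CXCR4+ libraries, against 1.10 times in the CXCR4- library. In the 8 knockout-experiment libraries that ratio ran from 0.56 to 1.07, and no test of the difference between the groups of genes was made.

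**Figure D4:**
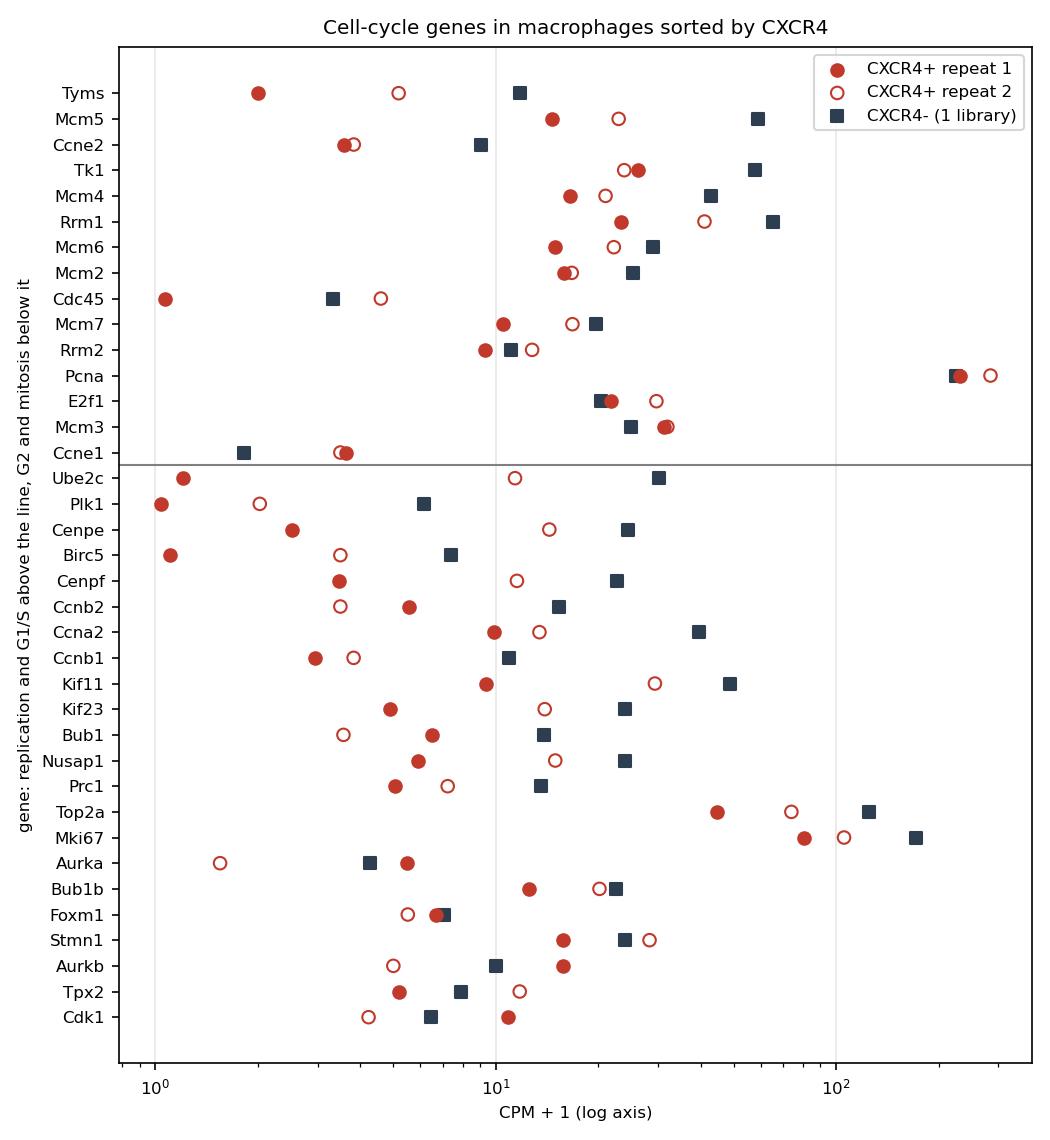
CPM + 1 on a log axis (x) of the 37 tested genes (y) in the 2 CXCR4+ libraries (red filled and open circles) and the CXCR4- library (dark squares); replication and G1/S genes lie above the line and G2 and mitosis genes below it, each ordered by log2 change. For 26 genes both circles lie left of the square, and for Pcna, E2f1, Mcm3 and Ccne1 both lie right of it.

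Other cell-cycle genes were called in both directions. Of 36 tested in a second list of replication and mitosis genes, Hmgb2, a chromatin protein, fell (log2 change -1.55) and the replication licensing factor Cdt1 rose (log2 change 3.23), and 25 were below 0 (58.7% of all genes were below 0 and 8.46% called). Of 29 regulators of the G1 checkpoint and quiescence, 4 fell and 1 rose (3.4% of all genes were called lower and 5.06% higher). The 4 were cyclin D3 (Ccnd3, -2.87), cyclin D1 (Ccnd1, -1.70), E2f2 (-3.51) and the antiproliferative gene Btg1 (-1.17). Cdk6, a kinase partner of the D cyclins, rose (1.57). These values are log2 changes, with adjusted p-values between 3.88e-07 and 0.0321 by limma. All 7 calls were lost with no filter and with no mean-variance trend, where no gene of the table was called, and that of Hmgb2 also with a pseudocount of 0.1 CPM and with quantile normalization.

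Markers of other cell types moved with the sort. Macrophage markers summed to 5018 and 5507 CPM in the CXCR4+ libraries, against 1558 CPM in the CXCR4- library, and none of the 9 was at 0. Dendritic cell markers, 7 genes all detected, summed to 474 and 534 CPM in the CXCR4+ libraries, against 1552 CPM in the CXCR4- library. Monocyte markers, 5 genes all detected, summed to 618 and 658 CPM in the CXCR4+ libraries, against 1045 CPM in the CXCR4- library. Eosinophil and granulocyte markers summed to 13.0 and 17.6 CPM in the CXCR4+ libraries, with Epx at 0 in both and Prg2 at 0 in library 2, against 155 CPM in the CXCR4- library, with S100a9 at 0. Fibroblast markers, 6 genes all detected, were higher, at 191 and 442 CPM in the CXCR4+ libraries, against 92.1 CPM in the CXCR4- library. B cell, plasma cell and, by little, basal sums also lay above the CXCR4- library in both CXCR4+ libraries. The sum of the 7 B cell markers was 242 and 184 CPM in the CXCR4+ libraries, against 168 CPM in the CXCR4- library. Within it Cd79a went the other way, at 0.0347 and 0.184 CPM in the CXCR4+ libraries, against 5.59 CPM in the CXCR4- library. The plasma cell sum covers the 3 of its 4 genes listed. Endothelial and T and NK cell sums lay below it in both, and luminal sums overlapped. The part of these cell types in the lower cell-cycle levels was not tested. With 1 CXCR4- library, the spread came from the CXCR4+ pairs of all genes tested, through the trend across genes. Because the prior was infinite, each gene took the trend value, and its own CXCR4+ pair did not enter separately.

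In Cxcr4 knockout macrophages no cell-cycle gene passed the test. Limma called 0 of 42 (0.00579% of the 17275 genes tested were called, which is 1 gene). That gene was Lyz2, the host gene of the LysM-Cre allele, and it is named here for being the single call. Lyz2 had 67.4 and 51.7 CPM in Cxcr4 knockout macrophages, against 10226 and 2780 CPM in LysM-Cre controls. In K8-Cre controls it had 7922 and 7433 CPM. The Lyz2 difference went together with the Cxcr4 genotype, and its part in the changes of the 42 genes was not tested. At an unadjusted p under 0.05 there was 1 of 42, the helicase subunit Mcm3, against 3.33% of all genes. Mcm3 had 1.37 and 22.8 CPM in Cxcr4 knockout macrophages, against 86.8 and 28.2 CPM in LysM-Cre controls. Its log2 change of -2.75 (adjusted p = 1, limma) was -1.09 without Cxcr4 knockout 1 and -4.42 without Cxcr4 knockout 2. The median log2 change of the 42 genes was -0.26, against 0.14 over all genes, and 24 of 42 were below 0 (42.3% of all genes). That median turned with single libraries: it was 0.41 without LysM-Cre control 2, 0.25 without Cxcr4 knockout 1 and -0.59 without Cxcr4 knockout 2.

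Top2a and Ube2c lay below both LysM-Cre controls in both Cxcr4 knockout libraries, without passing. Top2a had 32.2 and 36.6 CPM in Cxcr4 knockout macrophages, against 65.9 and 64.2 CPM in LysM-Cre controls (log2 change -0.90, SE 0.76, adjusted p = 1, limma). Ube2c had 11.9 and 7.47 CPM in Cxcr4 knockout macrophages, against 37.0 and 16.2 CPM in LysM-Cre controls (log2 change -1.29, SE 1.42). Neither gene overlapped between the groups. Mki67 overlapped, with 122 and 42.9 CPM in Cxcr4 knockout macrophages, against 137 and 57.0 CPM in LysM-Cre controls, and its log2 change was -0.28 (SE 0.67).

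In all, 6 of 42 genes lay below both controls in both knockout libraries (8.78% of all genes): Top2a, Ube2c, Cdc20, Mcm2, Mcm3 and E2f1. Another 3 lay above (16.7% of all genes): Cdk1, Mybl2 and the licensing factor Cdc6. Mcm2 had 16.6 and 24.2 CPM in Cxcr4 knockout macrophages, against 29.0 and 30.3 CPM in LysM-Cre controls. E2f1 had 1.84 and 10.7 CPM in Cxcr4 knockout macrophages, against 41.6 and 14.6 CPM in LysM-Cre controls. Cdk1 had 16.5 and 7.11 CPM in Cxcr4 knockout macrophages, against 0 and 5.12 CPM in LysM-Cre controls. The 0 of Cdk1 comes from LysM-Cre control 1, in which 11 further genes of the 42 were also at 0.

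The remaining named genes overlapped between genotypes. Pcna had 248 and 184 CPM in Cxcr4 knockout macrophages, against 334 and 223 CPM in LysM-Cre controls. Mcm5 had 33.7 and 31.03 CPM in Cxcr4 knockout macrophages, against 33.0 and 41.7 CPM in LysM-Cre controls. Neither of these replication genes separated the genotypes. Tk1 had 14.5 and 26.6 CPM in Cxcr4 knockout macrophages, against 0.283 and 23.2 CPM in LysM-Cre controls. Rrm2 had 14.3 and 8.94 CPM in Cxcr4 knockout macrophages, against 0 and 12.0 CPM in LysM-Cre controls. For both genes LysM-Cre control 1 was the low library. Stmn1 had 76.1 and 19.2 CPM in Cxcr4 knockout macrophages, against 28.7 and 5.01 CPM in LysM-Cre controls. Ccnb1 had 0.176 and 1.95 CPM in the knockout, against 5.72 and 0.596 CPM in LysM-Cre controls. Each pair holds 1 high and 1 low library. Birc5 had 0 and 4.97 CPM in the knockout, against 0 and 7.996 CPM in LysM-Cre controls. Foxm1 had 0 and 2.90 CPM in the knockout, against 7.12 and 0.298 CPM in LysM-Cre controls. In the second list 0 of 42 tested passed and in the regulators 0 of 30, with median log2 changes of 0.29 in each; the outermost were Cdt1 (3.31) and Cks1b (-3.45), and E2f8 (2.77) and Lin37 (-3.34).

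**Figure D5:**
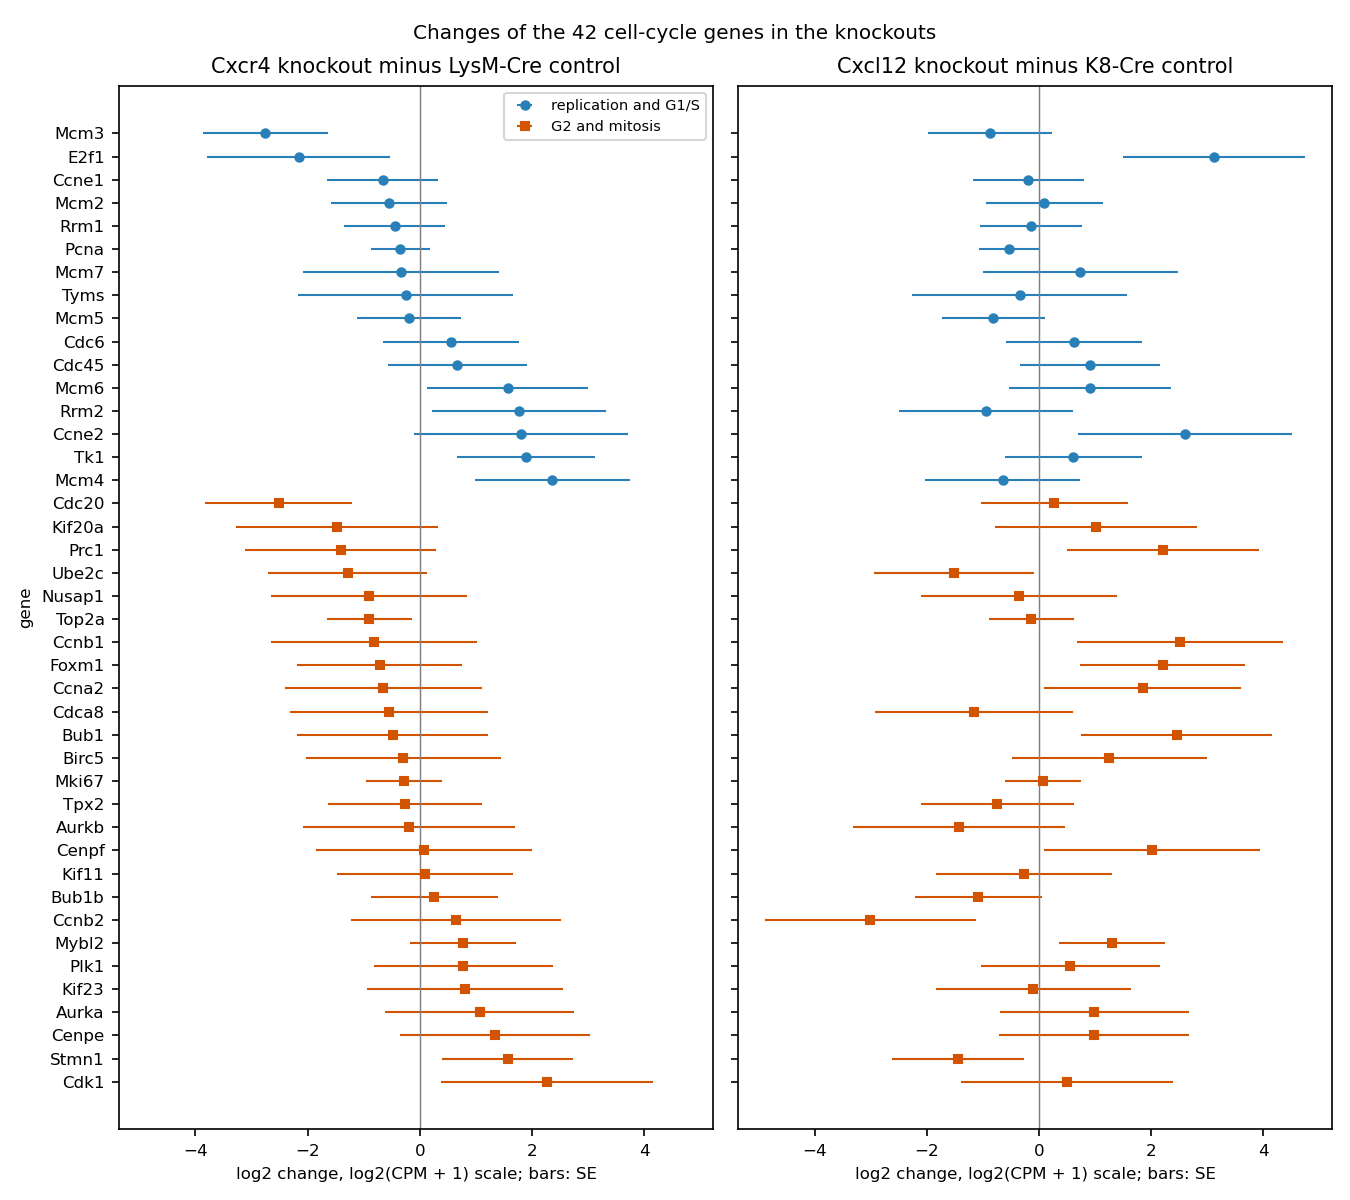
Log2 change (x axis, log2(CPM + 1) scale) of each of the 42 genes (y axis) in the Cxcr4 knockout at left and the Cxcl12 knockout at right, with its SE as a bar; blue circles are replication and G1/S genes and orange squares G2 and mitosis genes, each ordered by the change at left. The points run from -2.75 (Mcm3) to 2.36 (Mcm4) at left and from -3.00 (Ccnb2) to 3.12 (E2f1) at right, and none passed the test.

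Macrophages from mice without luminal Cxcl12 gave no call among the 42 genes either. Limma called 0 of 42 and 0 of all 17275 genes (0% of all genes), and at an unadjusted p under 0.05 there were 0 of 42, against 2.84% of all genes. The median log2 change was 0.18, against 0.36 over all genes. Above 0 were 23 of 42, against 11081 of all 17275 genes. Quantile normalization turned the median to -0.21, and it was -0.06 without Cxcl12 knockout 2. In 11 genes both knockout libraries lay above both controls (20.4% of all genes) and in 4 they lay below (8.03% of all genes).

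The 11 were the transcription factors E2f1, Foxm1 and Mybl2, the cyclins Ccna2, Ccnb1 and Ccne2, the checkpoint kinase Bub1, the midzone protein Prc1, Cenpf, Mcm6 and Cdc6. E2f1 had 35.05 and 19.4 CPM in Cxcl12 knockout macrophages, against 0.116 and 7.76 CPM in K8-Cre controls (log2 change 3.12, SE 1.62, adjusted p = 1, limma). Ccnb1 had 13.9 and 13.2 CPM in Cxcl12 knockout macrophages, against 0 and 5.56 CPM in K8-Cre controls. Foxm1 had 6.01 and 2.75 CPM in Cxcl12 knockout macrophages, against 0 and 0.242 CPM in K8-Cre controls. The low library was K8-Cre control 1 in each case, which held 8.60 M reads and had 10 of the 42 genes at 0.

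The 4 genes below were Ccnb2, Pcna, Mcm5 and Rrm2. Pcna had 185 and 178 CPM in Cxcl12 knockout macrophages, against 358 and 193 CPM in K8-Cre controls (log2 change -0.53, SE 0.53). Mcm5 had 21.9 and 35.1 CPM in Cxcl12 knockout macrophages, against 66.4 and 36.8 CPM in K8-Cre controls. Rrm2 had 12.3 and 16.7 CPM in Cxcl12 knockout macrophages, against 47.9 and 16.7 CPM in K8-Cre controls. In these genes K8-Cre control 1 was the high library. Summed over the 42 genes, the level was 1006 and 950 CPM in Cxcl12 knockout macrophages, against 1567 CPM in K8-Cre control 1 and 808 CPM in K8-Cre control 2.

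Mki67 had 142 and 107 CPM in Cxcl12 knockout macrophages, against 179 and 76.3 CPM in K8-Cre controls. Top2a had 71.6 and 90.8 CPM in Cxcl12 knockout macrophages, against 160 and 49.1 CPM in K8-Cre controls. Both proliferation markers overlapped, and the sign of each log2 change (0.08 for Mki67, -0.14 for Top2a) turned when single libraries were left out. Ube2c had 1.96 and 17.5 CPM in Cxcl12 knockout macrophages, against 31.3 and 12.9 CPM in K8-Cre controls. Stmn1 had 5.09 and 26.6 CPM in Cxcl12 knockout macrophages, against 44.6 and 26.2 CPM in K8-Cre controls. These also overlapped. Tk1 had 68.2 and 34.1 CPM in Cxcl12 knockout macrophages, against 50.6 and 19.1 CPM in K8-Cre controls. Mcm2 had 39.4 and 22.6 CPM in Cxcl12 knockout macrophages, against 29.6 and 26.3 CPM in K8-Cre controls. Both overlapped as well. Cdk1 had 0 and 14.1 CPM in Cxcl12 knockout macrophages, against 0 and 6.58 CPM in K8-Cre controls. Birc5 had 6.07 and 4.19 CPM in Cxcl12 knockout macrophages, against 0 and 5.43 CPM in K8-Cre controls.

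The second list had 0 of 42 called, with a median log2 change of 0.67, and the regulators 0 of 30, with 0.11. Their outermost values were Spc25 (2.92) and Ndc80 (-2.45), both kinetochore genes, and the CDK inhibitor Cdkn2c (2.09) and Lin37 (-2.95), a MuvB subunit. The change in the Cxcr4 knockout minus that in the Cxcl12 knockout was also tested, and limma called 0 of 42 (0.00579% of all genes). At an unadjusted p under 0.05 there was 1 of 42, E2f1, against 2.48% of all genes, with a difference of -5.28 (SE 2.30, adjusted p = 1.000 by limma). The median difference was -0.16 over the 42 genes, against -0.22 over all genes. The SE of the difference in Mki67 and Top2a exceeds the difference itself, so differences of that size were not detectable with these libraries.

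Libraries of cultured macrophages held Pcna and Mki67 mRNA, while mitotic regulators were scattered. Each condition has 1 library, so values are set side by side with no test, and log2 ratios use a prior of 2 reads (0.0993 CPM). Mki67 was at 94.8 CPM with CXCL12, 113 CPM with the AKT inhibitor and 155 CPM with both, against 91.7 CPM untreated. Pcna was at 272 CPM with CXCL12, 170 CPM with the inhibitor and 195 CPM with both, against 265 CPM untreated. Summed over the 40 genes listed, the levels were 678, 569 and 641 CPM in those 3 treated conditions, against 682 CPM untreated. In the same order the 4 endothelial markers, none at 0, summed to 1532, 2022 and 1567 CPM, against 1635 CPM untreated. The 9 macrophage markers summed to 877, 791 and 1220 CPM, against 843 CPM untreated, with Fcgr1 at 0 with both agents and untreated. The part of these cell types in the culture values was not tested.

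With CXCL12, 14 of 37 genes at 1 CPM or more were at least 2-fold higher than untreated (24.3% of all genes) and 8 at least 2-fold lower (22.2% of all genes). The median log2 ratio was 0.38. The 5 highest among genes reaching 10 CPM were the spindle gene Nusap1 (17.4 CPM with CXCL12, against 0.0473 CPM untreated), Cenpf (10.9 CPM, against 0.0473 CPM untreated), Mcm5 (16.05 CPM, against 5.63 CPM untreated), Tk1 (24.0 CPM, against 12.1 CPM untreated) and Ccne2 (20.97 CPM, against 15.7 CPM untreated). The 5 lowest were Bub1, Top2a, Prc1, Rrm1 and Mcm7, with log2 ratios between -3.84 and -1.09. Top2a was at 17.4 CPM with CXCL12, against 53.7 CPM untreated, so it did not follow Nusap1 and Cenpf.

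With the AKT inhibitor, 10 of 33 genes were at least 2-fold higher than untreated (25.3% of all genes) and 14 at least 2-fold lower (27.1% of all genes), with a median log2 ratio of -0.18. The highest were Ccnb1 (14.2 CPM with the inhibitor, listed at 0 untreated), Nusap1 (10.3 CPM, against 0.0473 CPM untreated), Ube2c (16.1 CPM, against 0.189 CPM untreated), Mcm3 (29.0 CPM, against 11.0 CPM untreated) and thymidylate synthase Tyms (17.5 CPM, against 9.08 CPM untreated). The lowest were Ccna2, Mcm6, Prc1, Rrm1 and Bub1, with log2 ratios between -3.45 and -1.61. Mcm5 was at 0.140 CPM with the inhibitor, against 5.63 CPM untreated. Top2a differed little, at 47.3 CPM with the inhibitor, against 53.7 CPM untreated.

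With both agents, 21 of 35 genes were at least 2-fold lower than with CXCL12 alone (43% of all genes) and 7 at least 2-fold higher (19.2% of all genes). Against the inhibitor alone, 15 of 30 were lower (40.1% of all genes) and 9 higher (20% of all genes). The medians were -3.52 and -1.73, and -0.81 and -0.16 under quantile normalization. Top2a was at 0.312 CPM with both agents, against 17.4 CPM with CXCL12 alone and 47.3 CPM with the inhibitor alone. Nusap1, Kif23 and Cenpf were at 0.0624 CPM each with both agents, against 17.4, 13.9 and 10.9 CPM with CXCL12 alone, and Mcm4 was at 0.624 CPM, against 22.8 CPM. A level of 0.0624 CPM is 1 read in that library, which had 21 of 40 genes under 3 reads. Going the other way against CXCL12 alone were Aurkb, Kif20a, Bub1b, Mcm6 and Ccna2, with log2 ratios between 1.71 and 4.46. Aurora kinase Aurkb was at 19.6 CPM with both agents, against 0.792 CPM with CXCL12 alone and 0 with the inhibitor alone.

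Against the inhibitor alone the lowest were Mcm7, Ccnb1, Top2a, Kif23 and Tyms, and the highest Aurkb, Aurka, E2f1, Ccna2 and Mcm6. E2f1 was at 6.44 CPM with CXCL12, 0.0698 CPM with the inhibitor and 15.5 CPM with both, against 5.49 CPM untreated. Tk1 was steadier, at 24.0 CPM with CXCL12, 17.5 CPM with the inhibitor and 20.6 CPM with both, against 12.1 CPM untreated. Ube2c was at 7.20 CPM with CXCL12, 16.1 CPM with the inhibitor and 9.48 CPM with both, against 0.189 CPM untreated. For Ube2c the untreated culture was the low library. Mcm2 was at 3.62 CPM with CXCL12, 0.0698 CPM with the inhibitor and 0.0624 CPM with both, against 5.91 CPM untreated. Rrm2 was at 0.103 CPM with CXCL12, 10.6 CPM with the inhibitor and 0.0624 CPM with both, against 7.33 CPM untreated. Stmn1 was at 3.99 CPM with CXCL12, 3.49 CPM with the inhibitor and 0.374 CPM with both, against 0.142 CPM untreated. For Mcm2, Rrm2 and Stmn1 the culture with both agents held at most 0.374 CPM. Cdk1 was at 7.37 CPM with CXCL12 and 2.86 CPM with the inhibitor, and at 0 with both and untreated. Birc5 was at 5.20 CPM with CXCL12 and 4.33 CPM with the inhibitor, and at 0 with both and untreated. Foxm1 was at 4.85 CPM with CXCL12, at 0 with the inhibitor and with both, and at 0.709 CPM untreated.

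In the second list, 10 of 29 genes were at least 2-fold higher with CXCL12 than untreated (24.3% of all genes) and 11 lower (22.2% of all genes); Uhrf1 had the highest log2 ratio (5.95). With both agents 15 of 26 were at least 2-fold lower than with CXCL12 alone (43% of all genes), among them Hmgb2, at 0 with both against 22.6 CPM with CXCL12. Among the regulators 8 of 25 were at least 2-fold lower with both agents than with CXCL12 alone, also against 43% of all genes, and 4 higher, against 19.2%. Among those reaching 10 CPM in either library the extremes were Rbl1, a relative of the retinoblastoma protein (0.125 CPM with both, against 36.1 CPM with CXCL12), and Lin9, a MuvB subunit (22.4 CPM with both, against 3.44 CPM with CXCL12).

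In P4 basal cells the replication genes were mostly higher in the Cxcl12 knockout than in the control, while G2 and mitosis genes were mixed. Of 14 replication genes at 1 FPKM or more, 12 had a log2 ratio above 0, with a median of 0.53; over all genes 6771 of 13146 were above 0. Of 24 G2 and mitosis genes, 14 were below 0, with a median of -0.20. Over all 38 genes, 6 were at least 2-fold higher (13.5% of all genes) and 5 at least 2-fold lower (9.68% of all genes), with a median of 0.12 beside 0.03 over all genes. Ratios are on the log2(FPKM + 1) scale, and with 1 library per genotype no test is possible. All deposited FPKM values summed to 1.50e+07 in the knockout and 2.95e+07 in the control. The main ratios were not rescaled for this, and its part in them was not tested. Markers of other cells also differed: the 6 fibroblast markers, none at 0, summed to 484 FPKM in the knockout and 291 FPKM in the control. The 4 endothelial markers, none at 0, summed to 12.6 FPKM in the knockout and 5.34 FPKM in the control, and the 2 plasma cell markers listed, neither at 0, to 143 FPKM in the knockout and 346 FPKM in the control. Their part in the P4 values was not tested.

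The helicase genes Mcm3, Mcm6 and Mcm2 were each at least 2-fold higher in the knockout. Mcm3 was at 13.4 FPKM in the Cxcl12 knockout, against 1.66 FPKM in the control. Mcm6 was at 15.3 FPKM in the knockout, against 7.07 FPKM in the control, and Mcm2 at 5.26 FPKM in the knockout, against 1.85 FPKM in the control. Rrm2, Rrm1 and Pcna, the others of the 5 highest genes reaching 10 FPKM, had log2 ratios of 0.75, 0.56 and 0.43. Pcna was at 246 FPKM in the knockout, against 183 FPKM in the control, which was 50.03% and 42.9% of the summed level of the 42 genes. Mcm5 was at 8.59 FPKM in the knockout, against 5.35 FPKM in the control, and Rrm2 at 12.5 FPKM, against 7.03 FPKM. E2f1 was at 2.46 FPKM in the knockout, against 0.805 FPKM in the control. Tk1 went the other way, at 0.874 FPKM in the knockout, against 2.93 FPKM in the control.

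Of the mitotic genes, Prc1 was at 4.64 FPKM in the knockout, against 11.2 FPKM in the control. Stmn1 was at 41.3 FPKM in the knockout, against 66.1 FPKM in the control, and Ccna2 at 8.11 FPKM, against 11.9 FPKM. These were the 3 lowest of the 8 genes reaching 10 FPKM. The kinesin Kif20a was listed at 0 in the knockout, against 5.93 FPKM in the control. Mki67 and Top2a were level, at 7.91 and 9.85 FPKM in the knockout, against 7.83 and 9.30 FPKM in the control. Ube2c was at 5.19 FPKM in the knockout, against 6.34 FPKM in the control, and Ccnb1 at 6.33 FPKM, against 9.48 FPKM. Cdk1 and Birc5 were higher, at 2.62 and 6.68 FPKM in the knockout, against 1.03 and 1.00 FPKM in the control, and Foxm1 was at 1.76 FPKM in the knockout, against 2.06 FPKM in the control. The summed G2 and mitosis level was 0.37 times the replication level in the knockout, against 0.70 times in the control. In the second list 4 of 33 genes were at least 2-fold higher (13.5% of all genes) and 3 lower (9.68% of all genes), with Pttg1, which encodes securin, at 45.4 FPKM in the knockout, against 14.0 FPKM in the control. Of 28 regulators 2 were higher and 2 lower by the same measure, among them E2f6 (log2 ratio 1.12) and Cdkn2c (-1.15).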

How the data were processed

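The 42 members and the gene lists beside them were chosen with earlier results of these data known. Per the labels' protocols, RNA was purified with RNeasy kits, depleted of ribosomal RNA with QIAseq FastSelect and sequenced from PrepX libraries. Per the submitters' processing notes, the tools and build named, with no role given, are Partek, STAR 2.7.8a and hg38, a human build, although the deposited genes are mouse; the counting step is not given in the sources used here. Gene starts in the knockout table matched GENCODE M21 (GRCm38) for 99.5% of 19314 shared symbols and all 42 members. The deposited macrophage values are log2 values, read from their minimum and sums as log2(CPM + 0.0001); they are not counts, so the test written for normalized values was used in place of a count test. CPM was recovered from them. The smallest step between values was taken as 1 read, which gave whole reads within 0.05 reads for 74.6% to 89.9% of values up to 50 reads, so no counts were rebuilt. The deposited P4 values are FPKM, in the layout of a Cufflinks file per the file headers. Culture and P4 entries that share a symbol were reduced to 1.

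Genes that reached 1 CPM in 2 or more libraries were tested with limma 3.58.1 (R 4.3.3) on log2(CPM + 1), which understates changes of low genes, with a mean-variance trend. The knockout fit used 8 libraries and 4 group means (4 residual degrees of freedom, prior 97.3). The CXCR4 fit used 3 libraries (1 residual degree of freedom, infinite prior). Adjusted p-values (Benjamini-Hochberg) cover the 17275 and 14411 genes tested, and passed under 0.05. The code was tested on simulated data. Because exact zeros occur, values are given per library with no mean. In single-library conditions no test was run; the 5 highest and 5 lowest log2 ratios among genes reaching 10 CPM or FPKM are named, and counts of genes use those at 1 or more. Genes with values in every library were Mki67, Top2a, Cdk1, Ccnb1, Birc5, Ube2c, Mcm2, Mcm5, Pcna, Rrm2, Tk1, E2f1, Foxm1 and Stmn1, and those that passed; from the other lists, genes that passed or the outermost ones are named, except 1 that is not reported here. Promoter letters were searched with Python 3.11.15 and pandas 2.3.3. Alternatives were another pseudocount or prior, no filter, quantile normalization, no trend, a repeat block and leaving out each library.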

Additional observations from a re-analysis of the deposited data

Results flagged for a closer look

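In culture, the AKT inhibitor was given without CXCL12 (inhibitor over untreated) and with it (both agents over CXCL12). Of 13 genes reaching 10 CPM in both comparisons, 8 had log2 ratios of opposite sign. Of these, 4 changed at least 2-fold in each comparison. The same counts over all genes were not made, so these are not read as particular to the 42 genes. Of all genes at 1 CPM or more, 25.3% were at least 2-fold higher and 27.1% lower with the inhibitor over untreated. With both agents over CXCL12 the shares were 19.2% and 43%. With 1 library per condition the difference was not tested. The 4 genes that follow were picked for their opposite changes. The log2 ratios of Ccna2 were -3.45 without and 1.71 with CXCL12, those of Mcm6 were -2.72 and 1.90, those of Mcm3 were 1.40 and -1.43, and those of Nusap1 were 6.14 and -6.75. Nusap1 stood at 1 read in the untreated culture and in the culture with both agents. The midzone gene Prc1 had a log2 change of -1.11 in P4 cells and of 2.20 (SE 1.71, adjusted p = 1 by limma) in macrophages of Cxcl12 knockout mice. In those macrophages it had 17.8 and 17.8 CPM, against 0.116 CPM in K8-Cre control 1, which is 1 read, and 13.9 CPM in K8-Cre control 2. These come from separately normalized tables, and the difference was not tested.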

How the results depend on the processing

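Of 337 tested values of named genes under alternative settings, 305 kept their direction and side of the threshold, 24 lost a call and 8 changed sign. Of 58 values in the sort without 1 CXCR4+ library, which have no test, 3 changed sign: without single libraries Cdk1 ran from -0.61 to 0.75, Stmn1 from -0.61 to 0.24 and Rrm2 from -0.25 to 0.20. The 42 genes gave 0 calls in both knockout comparisons and in their difference under every alternative run. In the CXCR4 sort, 2 calls became 0 with a pseudocount of 0.1 CPM, with no filter, with quantile normalization and with no trend. Over all genes the sort's 1219 calls became 0 with no filter and 0 with no trend. The prior degrees of freedom were infinite in the main fit, against 1.31 with no filter and 3.37 with no trend. The cause of the lost calls was not tested. Calls over all genes in the Cxcr4 knockout were 1, against 8 with no filter, 0 with no trend and 1 to 150 when single libraries were left out. In the Cxcl12 knockout they were 0, against 1 with the replicate block and 0 to 151 without single libraries, and in the difference 1, against 2 with no filter, 0 with no trend and 1 to 30 without single libraries. Without single libraries the log2 change of Mki67 ran from -1.03 to 0.46 in the Cxcr4 knockout (reversed at 0.34 and 0.46) and from -0.53 to 0.68 in the Cxcl12 knockout (reversed at -0.53 and -0.13), and that of Top2a from -0.98 to 0.70 in the Cxcl12 knockout (reversed at 0.70 and 0.03). Quantile normalization reversed Foxm1 (0.0257) and Rrm2 (0.176) in the sort. The median log2 ratio in culture for CXCL12 over untreated moved to 0.58 with all genes listed and 0.52 with quantile normalization. For both agents over CXCL12 it moved to -2.51 with a prior of 8 reads, -3.19 with all listed and -0.81 with quantile normalization, and for both over the inhibitor to -1.34, -0.065 and -0.16 with those settings. In P4 cells a pseudocount of 0.1 FPKM made 10 genes at least 2-fold higher in place of 6, and quantile normalization moved the median to 0.0048. The log2 differences between repeat 1 and repeat 2 correlated weakly between knockout and control (r 0.14 for LysM-Cre, 0.09 for K8-Cre). Yet repeat 1 held fewer reads than repeat 2 in each genotype, and had more of all listed genes at 0. Depth in repeats 1 and 2 was 16.8 and 28.0 M reads in the Cxcr4 knockout, against 14.2 and 20.1 M reads in LysM-Cre controls. It was 15.3 and 34.1 M reads in the Cxcl12 knockout, against 8.60 and 37.2 M reads in K8-Cre controls. Whether repeat numbers mark a shared batch was not tested. The main fit does not pair libraries by them, and the replicate block was run as an alternative. In this balanced design the replicate block cannot move the member medians of -0.26 and 0.18. The CXCR4- library is single and could not be left out. Where leaving out a library left a group with 1 sample, that sample is assumed to vary like the others. Genes under 3 reads are not resolved. There were 21 of 40 in the culture with both agents (16.04 M reads) and 12 of 40 with the inhibitor (14.3 M reads). Of 42 genes, repeats 1 and 2 had 12 and 2 in the Cxcr4 knockout, against 17 and 5 in LysM-Cre controls. They had 3 and 0 in the Cxcl12 knockout, against 17 and 0 in K8-Cre controls. The part of depth in these counts was not tested.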
